A study of Mus musculus with 96 samples.

Results

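Forebrain and cerebellum of undisturbed mice were compared across all features of the count table, to describe the neuronal and glial programs that separate the regions. The comparison took the 12 control forebrain libraries and 11 of the 12 control cerebellum libraries, 23 of the 96 libraries in the series, and averaged the regional difference over 6 circadian times (CT). All mice were male wild-type C57BL/6 animals aged 6 to 8 weeks, kept on alternating light and dark with free food and water, and tissues were collected in constant darkness. Control animals (CON) stayed undisturbed, while those of the sleep-deprived group (SD) had to keep moving in a slowly turning drum for 10 h of the resting phase. Tissues were then taken every 4 h from CT4 to CT24, with 2 biological replicates per tissue, condition and time. Forebrain and cerebellum are whole dissections that hold many cell types, and which forebrain structures were taken was not stated. In such bulk RNA, fewer cells of a type and less RNA per cell cannot be told apart. The first cerebellum library of CT8 was left out by the rule that set the comparison. In it 3.60% of the counts lay on genes annotated as antisense, against 0.831 to 1.12% in the 23 libraries used.

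The forebrain is formed from the front of the neural tube and holds the cortex, hippocampus and striatum, where glutamatergic projection neurons, GABAergic striatal neurons and several classes of inhibitory interneurons are laid out under factors such as Emx1 and the Dlx family. The cerebellum is formed from the front of the hindbrain and is dominated by small, densely packed granule neurons, which excite the large GABAergic Purkinje cells that are its only cortical output. Bergmann glia, the astrocytes of the Purkinje cell layer, and glycinergic and GABAergic interneurons complete its cortex.

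Depth ranged from 26.0 to 30.3 M counts in the cerebellum libraries and from 30.1 to 36.5 M in the forebrain libraries, so that 1 CPM, a count scaled to 1000000 counts of a library, rested on at least 26.0 counts. Libraries of one region differed in the levels of several marker genes. The summed level of the list of striatal projection neuron genes ran from 1715 to 5610 CPM in forebrain, with a median of 1938 CPM, and was highest in the first libraries of CT8 (5610 CPM) and CT16 (5578 CPM). The first CT8 forebrain library also had the lowest summed level of the list of cortical and hippocampal excitatory neuron genes, at 5155 CPM against 6313 to 8504 CPM in the other 11. In cerebellum, the choroid plexus transcript Ttr, which codes for transthyretin, ran from 0.238 to 1703 CPM and was above 100 CPM in the second library of CT8, the second of CT12, the first of CT16 and both of CT20. Nrgn, a transcript of forebrain projection neurons, stood at 17.3 CPM in the second cerebellum library of CT16 and at 9.84 CPM in the second of CT20, against 0.363 to 3.16 CPM in the other 9. Fits were made without the first forebrain libraries of CT8 and CT16, and without the 5 cerebellum libraries above 100 CPM of Ttr. They are given beside some of the genes whose calls they changed. Other list members that lost the call without the 5 cerebellum libraries were Wif1, Nr2f1, Nr2f2, Ndnf, Slc5a7, Grin3a, Cldn2, Nr4a1 and Nr4a2. The part of the marker levels above in the regional differences was not tested otherwise.

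**Figure D1:**
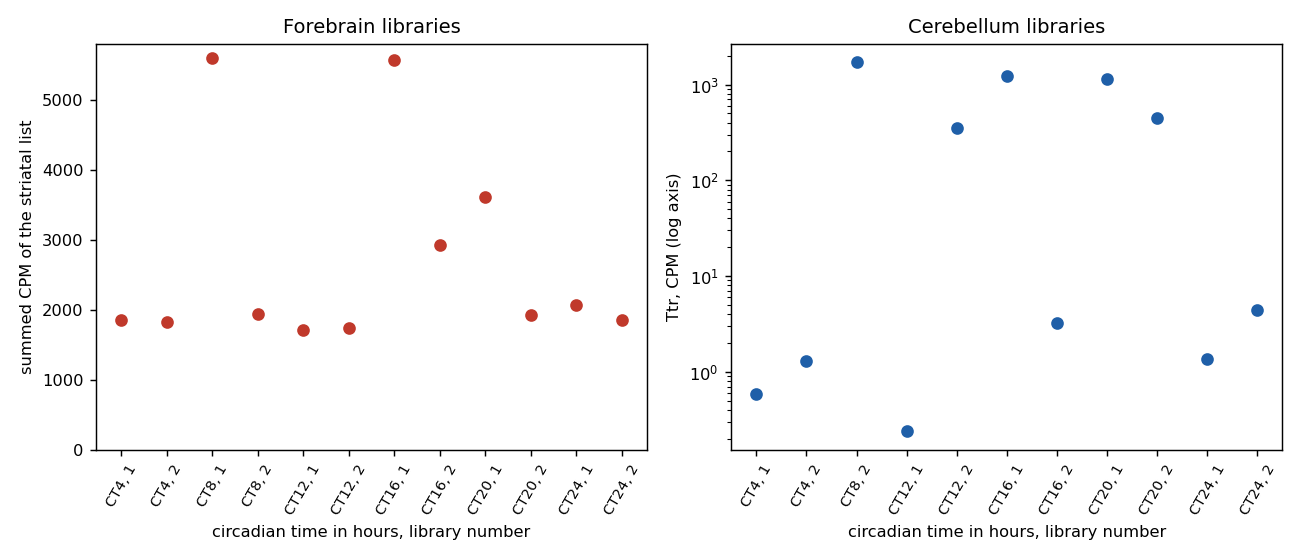
Each point is a control library, ordered by circadian time and library number. The left panel plots the summed CPM of the striatal gene list in 12 forebrain libraries on a linear axis, and the right panel plots Ttr in CPM in 11 cerebellum libraries on a log axis. The first forebrain libraries of CT8 and CT16 lie at 5610 and 5578 CPM, and 5 cerebellum libraries lie above 100 CPM of Ttr.

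Of 20540 features tested, 3524 (17.2%) were called higher in forebrain and 3263 (15.9%) higher in cerebellum, where a call needed a Benjamini-Hochberg adjusted p below 0.05 in the quasi-likelihood test of edgeR and a difference of more than 2-fold. By the adjusted p alone 16998 features (82.8%) differed, 8551 of them higher in forebrain and 8447 higher in cerebellum. The median log2 difference, forebrain minus cerebellum, was 0.0074 over all features tested, and the median absolute difference was 0.64. Differences of more than 16-fold (log2 beyond 4) were called for 554 features in forebrain and 220 in cerebellum. The libraries of the regions did not overlap for 9548 features (46.5% of those tested), which included 5518 of the 6787 called features (81.3%). Counts of called members in gene lists are to be read against these percentages. The lists and their members were chosen with earlier results of these data known, so list counts and medians are descriptions and not tests.

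**Figure D2:**
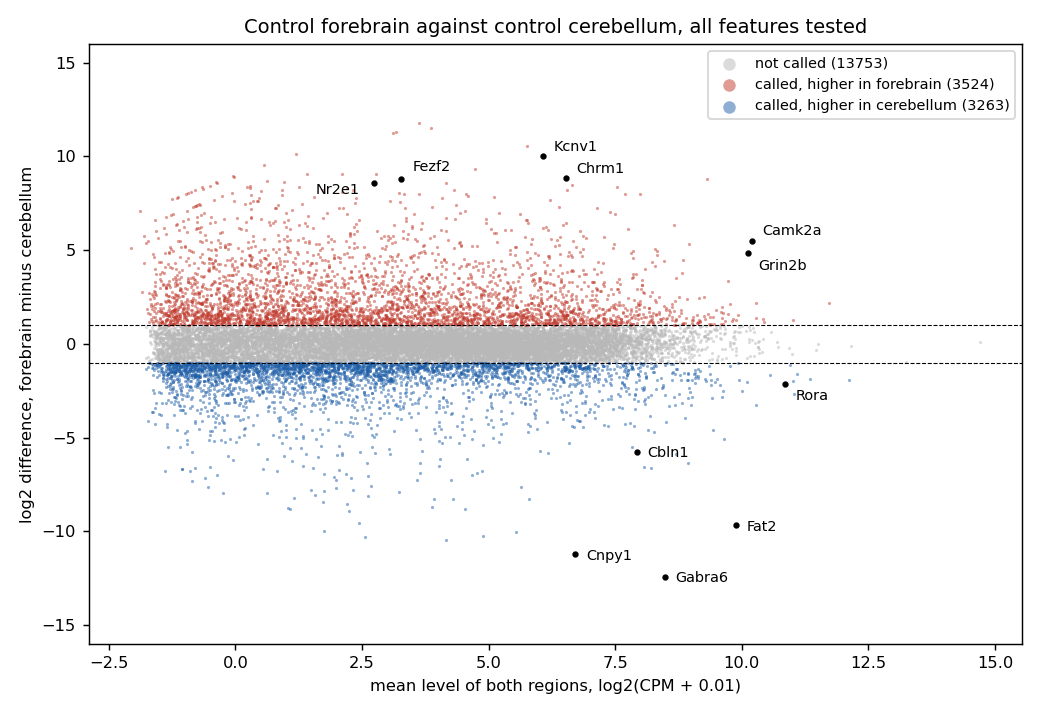
Each of the 20540 points is a feature, with its mean level in both regions as log2(CPM + 0.01) on the horizontal axis and its log2 difference, forebrain minus cerebellum, on the vertical axis. Dashed lines mark a 2-fold difference. Colours mark the 3524 features called higher in forebrain and the 3263 called higher in cerebellum, and 11 genes are labelled.

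Among protein-coding genes, the largest differences at a mean of 10 CPM or more in the higher region were of genes that were close to 0 in the other region. Gabra6, the α6 subunit of the GABA-A receptor and a marker of mature granule neurons (GRCm38 chr11:42306437-42321072), had 641, 718 and 756 CPM in cerebellum (lowest, median and highest library) and 0, 0.014 and 0.983 CPM in forebrain. The fitted log2 difference was -12.43 ± 0.34 (SE, adjusted p = 6.4e-18), and the libraries did not overlap. Cnpy1, a regulator of FGF signalling at the boundary of midbrain and hindbrain (chr5:28200819-28245806), followed with 176, 195 and 263 CPM in cerebellum and 0, 0.044 and 0.553 CPM in forebrain (log2 -11.23 ± 0.27). Fat2, an atypical cadherin of granule neurons (chr11:55250609-55336564), had 1624, 1903 and 2152 CPM in cerebellum and 0.566, 2.14 and 5.55 CPM in forebrain (log2 -9.67 ± 0.27).

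The remaining cerebellar genes named by the same rule were Skor2 and Ppp1r17, both of Purkinje cells, Dao (D-amino acid oxidase), the homeobox genes En2 and Uncx, the glycine transporter gene Slc6a5 and the kinase gene Nrk. Their log2 differences ran from -10.29 ± 0.20 for Skor2 to -7.24 ± 0.17 for Nrk, without overlap between the regions for any of these 7. Skor2 had 2 counts over the 12 forebrain libraries together and 3646 over the 11 cerebellum libraries, a ratio of CPM of 2360 with an exact 95% interval of 653 to 19490 for counting error only. For Ppp1r17, a phosphatase inhibitor (chr6:56017497-56032689), cerebellum had 78.0, 89.6 and 111 CPM and forebrain 0, 0.056 and 0.319 CPM.

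In forebrain the same rule named the potassium channel subunit gene Kcnv1 (chr15:45106284-45114920), with 77.3, 142 and 207 CPM in forebrain and 0, 0.099 and 0.628 CPM in cerebellum (log2 10.01 ± 0.28). Chrm1, the M1 muscarinic receptor gene (chr19:8663789-8683587), had 146, 188 and 221 CPM in forebrain and 0.034, 0.335 and 1.22 CPM in cerebellum (log2 8.85 ± 0.19). The regions overlapped for neither gene.

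Gm11549, Crym, Fezf2, Rgs14 and Nr2e1 were also in the forebrain group, and Crym, Fezf2, Rgs14 and Nr2e1 had log2 differences between 8.57 ± 0.26 for Nr2e1 and 9.35 ± 0.33 for Crym. Gm11549, with 7.82, 32.6 and 46.4 CPM in forebrain, had 11722 counts there against 2 over the 11 cerebellum libraries, a ratio of CPM of 4528 with an exact 95% interval of 1253 to 37390 for counting error only. Nr2e1, a nuclear receptor that keeps neural stem cells dividing, had 11.3, 13.3 and 15.7 CPM in forebrain and 0, 0 and 0.209 CPM in cerebellum. Crym, a thyroid hormone binding protein, varied more within forebrain, from 30.6 to 112 CPM with a median of 46.1 CPM.

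**Figure D3:**
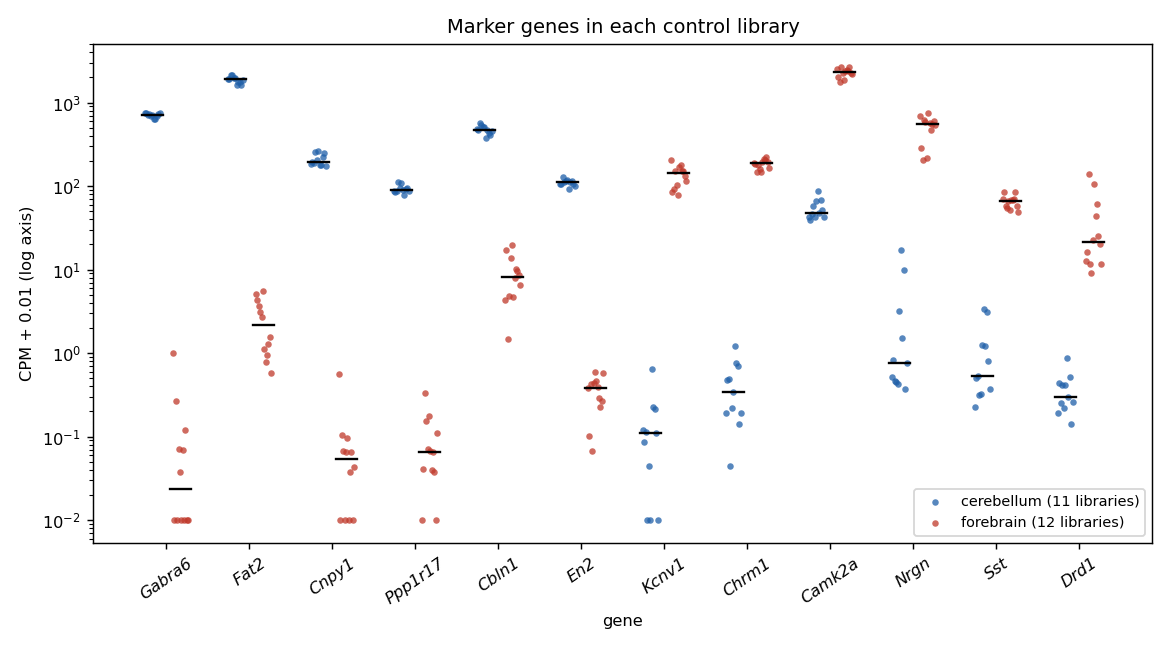
Each point is a control library and shows the level of a gene as CPM + 0.01 on a log axis, with cerebellum in blue (11 libraries) and forebrain in red (12 libraries) and a black bar at the median of each. The first 6 genes are higher in every cerebellum library and the last 6 in every forebrain library. Of the last 6, Drd1 spreads most among forebrain libraries, from 9.19 to 139 CPM.

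RefSeq promoter windows (GRCm38.p6, 250 bases before and 50 after a start) were found for 11033 of 14227 protein-coding genes tested. A window held a median of 20 CG pairs over all of them, 16 over genes called higher in forebrain and 18 over genes called higher in cerebellum. Beyond a log2 difference of 4 the median was 13 pairs for 198 forebrain genes and 8 pairs for 82 cerebellar genes. The letters TATAAA, searched on both strands, were in 7.16% of all windows, in 10.1% for forebrain calls and 8.03% for cerebellar calls, and in 17.7% (35 of 198) and 9.76% (8 of 82) of the windows beyond a log2 of 4. The windows of Gabra6 and of Nr2e1 are printed because they lie far apart in CG content, with 2 and 19 pairs, while each gene was close to 0 in one region. Both run 5′ to 3′ on the minus strand, and capitals mark CG pairs. The first spans chr11:42321023-42321322 and the second chr10:42583541-42583840, and neither holds TATAAA.
Gabra6: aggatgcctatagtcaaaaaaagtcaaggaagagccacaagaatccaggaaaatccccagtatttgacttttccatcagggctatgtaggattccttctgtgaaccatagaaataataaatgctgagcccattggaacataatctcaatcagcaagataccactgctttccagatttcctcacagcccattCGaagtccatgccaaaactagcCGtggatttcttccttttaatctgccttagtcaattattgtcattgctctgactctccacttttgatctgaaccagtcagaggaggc
Nr2e1: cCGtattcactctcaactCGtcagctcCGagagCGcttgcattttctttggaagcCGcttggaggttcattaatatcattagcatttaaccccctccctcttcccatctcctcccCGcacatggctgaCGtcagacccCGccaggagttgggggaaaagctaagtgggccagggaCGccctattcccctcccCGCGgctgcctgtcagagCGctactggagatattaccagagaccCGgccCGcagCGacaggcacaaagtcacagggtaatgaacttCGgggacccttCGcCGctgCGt

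Granule neuron genes were higher in cerebellum for 16 of 18 tested members and higher in forebrain for 1, with a median log2 difference of -4.12. The zinc finger gene Zic1, which keeps granule cell precursors dividing, had 649, 820 and 929 CPM in cerebellum and 7.88, 13.2 and 32.3 CPM in forebrain (log2 -5.88 ± 0.14, adjusted p = 1.5e-18). Cbln1, secreted by granule neurons to hold their synapses on Purkinje cells, had 373, 474 and 564 CPM in cerebellum and 1.47, 8.26 and 19.6 CPM in forebrain (log2 -5.75 ± 0.26). The member called in the other direction was Slc17a7, which codes for the vesicular glutamate transporter VGLUT1 of both granule neurons and cortical projection neurons. Its forebrain libraries lay at 653, 1203 and 1547 CPM and its cerebellum libraries at 326, 374 and 417 CPM (log2 1.71 ± 0.10). Kcnk9, a leak potassium channel gene, was not called (log2 -0.13 ± 0.04).

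Purkinje cell genes were higher in cerebellum for 21 of 26 members and higher in forebrain for 1, with a median of -2.24. Pcp2, a modulator of G proteins, had 48.8, 56.2 and 72.3 CPM in cerebellum and 0.340, 0.480 and 0.722 CPM in forebrain (log2 -6.78 ± 0.10, adjusted p = 7.5e-22). Car8, a carbonic anhydrase-related protein that binds the IP3 receptor, had 826, 935 and 1196 CPM in cerebellum and 7.86, 11 and 14.8 CPM in forebrain (log2 -6.36 ± 0.12). Calcium signalling genes that other neurons also use differed by less, as for Itpr1, the IP3 receptor gene (log2 -2.0 ± 0.13), and Calb1, the calbindin gene (log2 -2.36 ± 0.10). Foxp2 was called higher in forebrain (log2 1.09 ± 0.25) with overlapping libraries of 5.96 to 61.5 and 6.97 to 17 CPM. Without the 5 cerebellum libraries high in Ttr, which leaves none at CT8 or CT20, Foxp2 was at 0.86 and lost the call. It also lost the call without the first forebrain libraries of CT8 and CT16 (0.89), and without that of CT8 alone (0.95).

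Of the 14 tested genes of cerebellar interneurons and unipolar brush cells, 5 were higher in cerebellum and 3 higher in forebrain, with a median of -0.29. Slc6a5, the neuronal glycine transporter of Golgi cells, had 22, 27.6 and 52.8 CPM in cerebellum and at most 0.184 CPM in forebrain (log2 -8.26 ± 0.17). Eomes, a factor of unipolar brush cells, had 9.05, 15.3 and 29.2 CPM in cerebellum and 0.110, 0.223 and 0.970 CPM in forebrain (log2 -5.60 ± 0.28). Nxph1, Sorcs3 and Grm2, which forebrain neurons also express, were the 3 called higher in forebrain, by 1.42, 1.59 and 2.05 on the log2 scale. Gad1, the larger of the GABA-synthesizing enzymes, and Slc32a1, which loads GABA into vesicles, were not called (log2 -0.35 ± 0.08 and -0.24 ± 0.14).

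Regional transcription factors were the lists with the largest medians. Of the 23 tested factors of hindbrain and cerebellum, 21 were higher in cerebellum and none in forebrain, with a median of -5.26. Pax3 had 5.02, 6.69 and 8.34 CPM in cerebellum and 1 count over all forebrain libraries (ratio 2713, interval 486 to 107200), En2 had 92.9, 112 and 129 CPM against 0.057, 0.375 and 0.583 CPM (log2 -8.28 ± 0.15), and the Iroquois genes Irx1, Irx2, Irx3 and Irx5 lay between -6.52 and -3.57. Lmx1b and Lhx9 were not called and had low levels in both regions, with medians between 0.312 and 0.616 CPM.

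Of the 31 tested factors of the forebrain, 26 were higher in forebrain and 2 in cerebellum, with a median of 6.20. The Dlx genes, which drive the fate of GABAergic forebrain neurons, were close to 0 in cerebellum: Dlx1 had 8.29, 10.1 and 13.6 CPM in forebrain and 0, 0.035 and 0.253 CPM in cerebellum (log2 7.52 ± 0.25), and Dlx6 was at 0 in all 11 cerebellum libraries and at least 478-fold higher in forebrain, taking 3 counts over the group as the floor. With Dlx6 at this bound the median of the list was also 6.20. Emx1 and Emx2 of the cortical primordium differed by 8.19 ± 0.29 and 8.09 ± 0.37. Fezf2, of subcortically projecting neurons, had 2.23, 18.5 and 30.9 CPM in forebrain and at most 0.112 CPM in cerebellum (log2 8.81 ± 0.43). The 2 factors called higher in cerebellum were Prox1, of dentate granule neurons and some cerebellar cells (log2 -1.91 ± 0.10), and Cux1 (log2 -1.08 ± 0.08), each without overlap. Nr2f1 and Nr2f2 lay at the threshold, at 1.0 ± 0.15 and 1.02 ± 0.32, and fell below it with library sizes in place of TMM factors (0.95 and 0.97).

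Genes of cortical and hippocampal excitatory neurons were higher in forebrain for 26 of 29 members and higher in cerebellum for 1 (Prox1), with a median of 4.27. Camk2a, the α subunit of calcium/calmodulin-dependent kinase II, had 1760, 2327 and 2697 CPM in forebrain and 39.7, 47.3 and 88.1 CPM in cerebellum (log2 5.5 ± 0.12, adjusted p = 4.0e-19). Icam5, the telencephalic adhesion molecule of dendrites, had 141, 193 and 262 CPM in forebrain and 0.253, 0.490 and 1.20 CPM in cerebellum (log2 8.47 ± 0.16). Nrgn, which binds calmodulin in dendritic spines, had 207, 562 and 741 CPM in forebrain and 0.363, 0.760 and 17.3 CPM in cerebellum (log2 7.98 ± 0.57). The 2 highest cerebellum libraries were the second ones of CT16 and CT20, and without the former the difference was 8.50 ± 0.50. Neurod6, a factor of pyramidal neurons, differed by 4.27 ± 0.31.

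Striatal genes were higher in forebrain for 16 of 23 members and in cerebellum for none, with a median of 2.16. The D1 dopamine receptor gene Drd1 had 9.19, 21.4 and 139 CPM in forebrain and 0.132, 0.285 and 0.873 CPM in cerebellum (log2 6.66 ± 0.46). The adenosine receptor gene Adora2a and the enkephalin precursor gene Penk were called with overlapping libraries (log2 1.62 ± 0.63 and 1.06 ± 0.41), and their highest forebrain libraries stood at 79.1 and 295 CPM against medians of 5.20 and 37.5 CPM. Ppp1r1b, which codes for DARPP-32, was not called, with 30.4, 51.1 and 371 CPM in forebrain and 46.0, 57.8 and 73.6 CPM in cerebellum. Without the first forebrain libraries of CT8 and CT16, Penk was at 0.67 and lost its call. Without the 5 cerebellum libraries above 100 CPM of Ttr, which leaves none at CT8 or CT20, Adora2a and Penk were at 0.55 and 0.38 and neither was called. With both sets of libraries left out they were at 0.47 and 0.31, again not called. Adora2a also lost its call without the first forebrain library of CT20 alone (1.24, quasi-likelihood adjusted p = 0.061).

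Genes of forebrain interneurons were higher in forebrain for 15 of 24 members and in cerebellum for 3, with a median of 3.40. The neuropeptide genes Sst and Vip, which name classes of cortical interneurons, differed without overlap: Sst had 48.5, 66.4 and 85.9 CPM in forebrain and 0.219, 0.517 and 3.35 CPM in cerebellum (log2 6.11 ± 0.28), and Vip had 10.1, 18.7 and 25.7 CPM against 0, 0 and 0.720 CPM (log2 7.25 ± 0.42). Pvalb, the parvalbumin gene, which also marks Purkinje cells and cerebellar interneurons, went the other way with 4.79, 20.1 and 34.2 CPM in forebrain and 210, 238 and 280 CPM in cerebellum (log2 -3.48 ± 0.20). Calb2, the calretinin gene, was likewise higher in cerebellum, where granule neurons express it (log2 -4.45 ± 0.19), as was Reln (log2 -1.72 ± 0.17). Gad2, which GABAergic neurons of both regions use, was not called (log2 0.67 ± 0.15).

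Genes of the thalamus and hypothalamus (10 tested, 3 higher in forebrain and 3 in cerebellum, median 0.14), the olfactory bulb (7 tested, 2 and 3, median 0.38) and monoaminergic or cholinergic neurons (5 tested, 2 and 1, median 0.83) were mostly low, and 12, 1 and 7 further members of these lists were not tested. Slc17a6, the vesicular glutamate transporter VGLUT2 of thalamic and brainstem neurons, had 12.6, 28.3 and 56.0 CPM in forebrain and 0.170, 10.6 and 35.2 CPM in cerebellum. Its call (log2 1.26 ± 0.46) was lost without the 5 cerebellum libraries high in Ttr, where the difference was 1.15 (adjusted p = 0.086). Agrp, a hypothalamic peptide gene, was called higher in cerebellum (log2 -1.08 ± 0.08). It overlaps a gene on the other strand, as do 42.6% of all protein-coding genes tested, and whether this bears on its level was not tested.

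Pan-neuronal genes were higher in forebrain for 8 of 16 members and in cerebellum for 1, with a median of 0.91. Syt1, the calcium sensor of vesicle release, had 1009, 1418 and 1567 CPM in forebrain and 288, 336 and 378 CPM in cerebellum (log2 2.12 ± 0.08), and Map2, of dendrites, differed by 1.38 ± 0.04. Rbfox3, the gene of the NeuN protein, went the other way with 228, 277 and 312 CPM in forebrain and 879, 1099 and 1218 CPM in cerebellum (log2 -1.92 ± 0.07). Elavl3 was not called (log2 -0.07 ± 0.04).

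GABA-A receptor subunits divided between the regions: 7 of 15 were higher in forebrain and 3 in cerebellum, with a median of 0.98. Beside Gabra6, the cerebellum had more of Gabrd, whose δ subunit pairs with α6 outside synapses of granule neurons (95.6, 99.9 and 121 CPM against 12.5, 35.7 and 55.4 CPM in forebrain, log2 -1.57 ± 0.15), and of Gabrr2 (log2 -2.75 ± 0.18). The forebrain had more of Gabra2, Gabra3, Gabra4 and Gabra5, from 1.77 ± 0.11 for Gabra2 to 4.14 ± 0.13 for Gabra5, and of Gabrg3 (log2 4.49 ± 0.15). Per kb of exon, Gabra6 had the highest level of the 15 in cerebellum (286 CPM per kb, ahead of Gabrb2 at 143) and the lowest in forebrain (0.050 CPM per kb), where Gabrb2 led at 88.8 CPM per kb.

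Ionotropic glutamate receptor subunits were higher in forebrain for 8 of 18 members and in cerebellum for 5, with a median of 0.71. The NMDA receptor subunits divided: Grin2b had 1847, 2143 and 2373 CPM in forebrain and 66.9, 76.3 and 106 CPM in cerebellum (log2 4.83 ± 0.09, adjusted p = 1.0e-20), and Grin2c had 44.8, 51.7 and 66.9 CPM in forebrain and 347, 407 and 495 CPM in cerebellum (log2 -2.93 ± 0.06). The shared subunit gene Grin1 was not called (log2 0.44 ± 0.05). The AMPA receptor subunit gene Gria4 was higher in cerebellum (log2 -1.93 ± 0.09). Per kb, Gria4 led the cerebellar subunits at 249 CPM per kb, and Gria1 the forebrain ones at 94.1 CPM per kb.

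All 7 tested metabotropic glutamate receptors were called, 5 higher in forebrain and 2 in cerebellum, with a median of 2.14. Grm4, presynaptic on granule cell axons, had 33.2, 40.6 and 73.1 CPM in forebrain and 1315, 1573 and 1710 CPM in cerebellum (log2 -5.08 ± 0.11). Grm5, of the group that signals through phospholipase C, had 351, 445 and 575 CPM in forebrain and 7.17, 12.3 and 34.0 CPM in cerebellum (log2 4.86 ± 0.20). The list of cerebellins and C1q-like genes showed a like division, with a median of 3.75. Cbln1 was higher in cerebellum and the other 5 tested members of both families were higher in forebrain. Among these were the cerebellins Cbln2 (log2 5.12 ± 0.59) and Cbln4 (log2 4.35 ± 0.45).

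Of 13 tested transmitter transporters, 5 were higher in forebrain and 3 in cerebellum, with a median of 0.15. The glial glutamate transporters had opposite signs: Slc1a2 (GLT-1) had 4749, 5637 and 6118 CPM in forebrain and 1184, 1231 and 1405 CPM in cerebellum (log2 2.20 ± 0.05), and Slc1a3 (GLAST), which is prominent in Bergmann glia, had 390, 459 and 517 CPM in forebrain and 752, 871 and 930 CPM in cerebellum, without overlap but within 2-fold (log2 -0.84 ± 0.05). Slc1a6 (EAAT4) of Purkinje cells was higher in cerebellum (log2 -3.80 ± 0.06), and the neuronal Slc1a1 (EAAC1) higher in forebrain (log2 2.07 ± 0.04).

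Neuropeptide and peptide-processing genes were higher in forebrain for 16 of 21 members and in cerebellum for 1 (Nxph4, log2 -1.39 ± 0.23), with a median of 3.50. Vgf, a secreted precursor, had 178, 228 and 284 CPM in forebrain and 11.7, 16.9 and 26.2 CPM in cerebellum (log2 3.73 ± 0.09). Npy (log2 3.0 ± 0.21), Cck (log2 3.50 ± 0.20), Pdyn (log2 6.72 ± 0.37) and Cartpt (log2 7.40 ± 0.40) were higher in forebrain without overlap. The processing enzyme genes Pcsk1 and Pcsk2 were higher by 1.94 ± 0.14 and 1.99 ± 0.11.

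**Figure D4:**
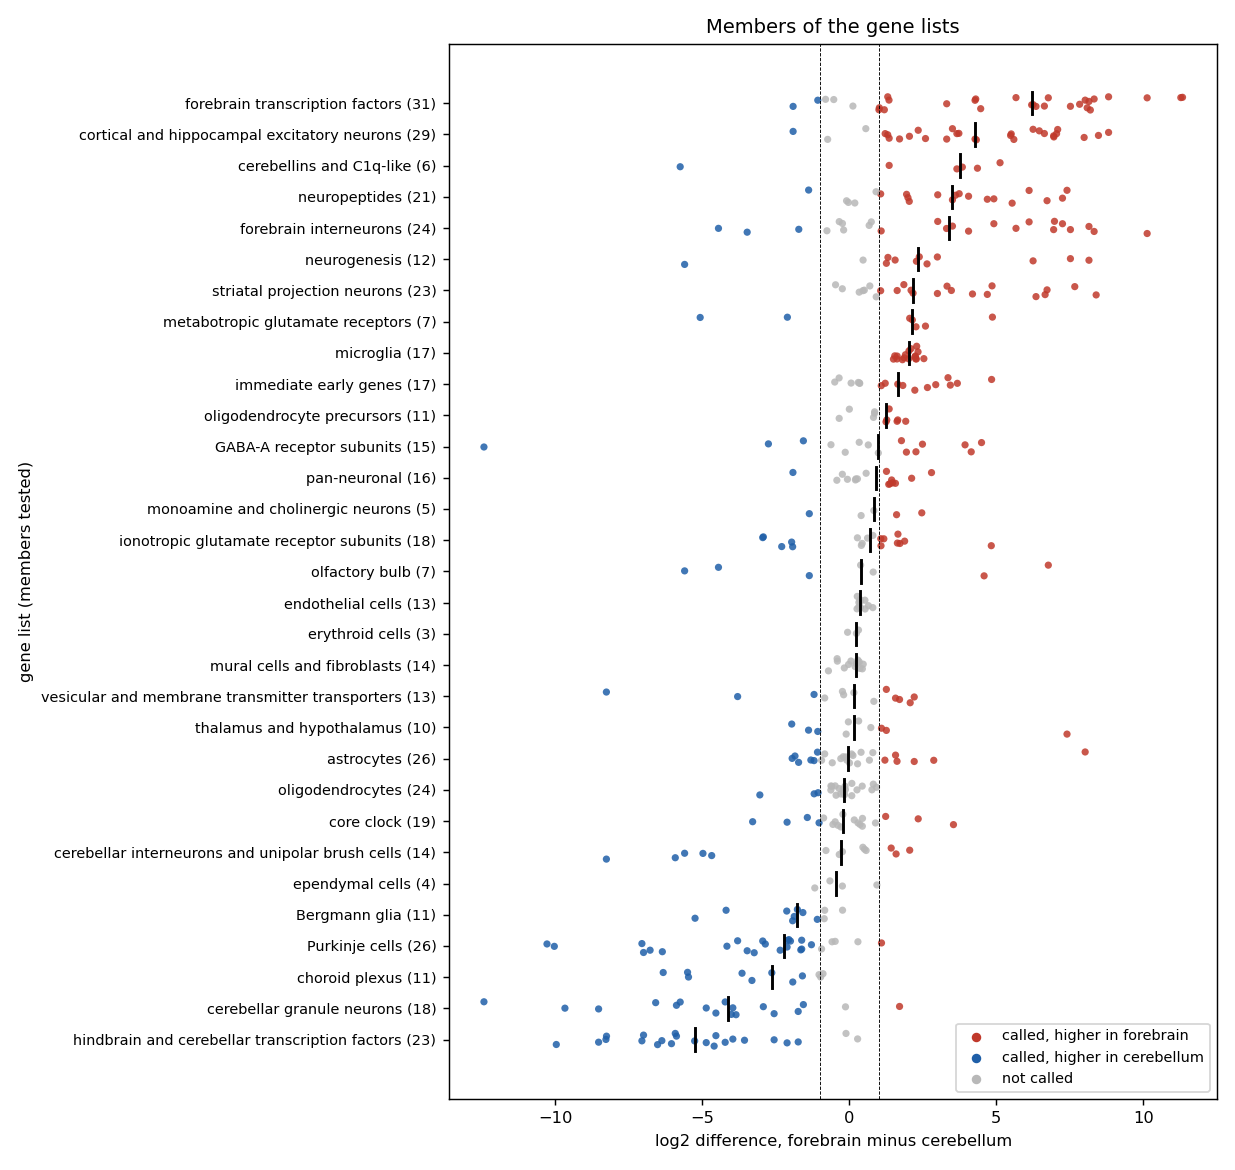
Each point is a tested member of a gene list, placed by its log2 difference, forebrain minus cerebellum, and coloured by its call. Black bars mark list medians, dashed lines a 2-fold difference, and the number after each name is the members tested. The list medians run from -5.26 for hindbrain and cerebellar transcription factors to 6.20 for forebrain transcription factors.

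Microglial genes, which mark the resident macrophages of the brain, were higher in forebrain for 17 of 17 tested members, in a narrow range from 1.5 to 2.53 with a median of 2.03. The fractalkine receptor gene Cx3cr1 had 34.0, 44.2 and 53.4 CPM in forebrain and 9.51, 11.5 and 12.9 CPM in cerebellum (log2 2.01 ± 0.06, adjusted p = 2.9e-17). P2ry12, the purinergic receptor of surveying microglia, had 22.2, 25.6 and 32.2 CPM against 4.52, 5.55 and 7.12 CPM (log2 2.28 ± 0.07), and the complement gene C1qa had 15.0, 18.6 and 22.9 CPM against 4.32, 4.92 and 7.16 CPM (log2 1.91 ± 0.07). The summed level of the list was 349 to 458 CPM in forebrain and 95.9 to 134 CPM in cerebellum. None of the 17 overlapped between the regions.

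Endothelial genes were not called for any of 13 members, although all 13 had an adjusted p below 0.05 and a higher level in forebrain, by 0.26 (Slc2a1) to 0.80 (Esam) with a median of 0.36. Genes of mural cells and fibroblasts were called for none of 14 (median 0.22), those of ependymal cells for none of 4 (median -0.45) and those of erythroid cells for none of 3 (median 0.24).

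Of 26 astrocyte genes, 6 were called higher in each region, beside 17.2% (forebrain) and 15.9% (cerebellum) of all features, with a median of -0.04. Toward forebrain lay Slc1a2, Glul (glutamine synthetase, log2 1.21 ± 0.07), Mfge8 (log2 1.62 ± 0.07), the GABA transporter gene Slc6a11 (log2 1.57 ± 0.16), Gpc5 (log2 2.87 ± 0.15) and Lhx2, a factor of forebrain origin, with 32.8, 46.1 and 66.6 CPM in forebrain and 0, 0.073 and 0.803 CPM in cerebellum. Toward cerebellum lay the bicarbonate transporter gene Slc4a4 (log2 -1.85 ± 0.09), S100b (log2 -1.73 ± 0.06), the water channel gene Aqp4 (log2 -1.31 ± 0.09), Agt (log2 -1.95 ± 0.30), Slc6a9 and Atp1b2. Genes that astrocytes of either region use, such as Sox9 (log2 0.07 ± 0.06), Gja1 (log2 0.12 ± 0.06) and Aldh1l1 (log2 0.28 ± 0.04), were not called.

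Bergmann glia genes were higher in cerebellum for 8 of 11 members and in forebrain for none, with a median of -1.77. Gdf10, a secreted factor of the BMP family, had 70.7, 75.4 and 91.9 CPM in cerebellum and 2.34, 4.23 and 5.97 CPM in forebrain (log2 -4.19 ± 0.10, adjusted p = 2.0e-18). Hopx (log2 -1.77 ± 0.13) and Vim (log2 -1.88 ± 0.07), shared with other radial glia, were higher by less. The list holds Slc1a3 and Gria4, which were described above.

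Oligodendrocyte genes, which mark myelinating cells, were called for 3 of 24 members, all higher in cerebellum, a direction called for 15.9% of all features. Their median was -0.20, and 15 of the 24 had an adjusted p above 0.05. In the quasi-likelihood test for a change with time, 17 of the 24 had an unadjusted p under 0.05, against 13.3% of all features. None of the 24 passed that test after adjustment. In the SD libraries 1 of the 24 was called, higher in cerebellum. Their summed level overlapped between the regions and ran from 1109 to 5854 CPM in forebrain and from 2600 to 6209 CPM in cerebellum. Mbp, the myelin basic protein gene, had 346, 1119 and 1862 CPM in forebrain and 836, 1509 and 2007 CPM in cerebellum (log2 -0.29 ± 0.22, adjusted p = 0.23), and the protease gene Klk6, of the called 3, had 3.57, 6.15 and 11 CPM in cerebellum and 0.028, 0.618 and 2.81 CPM in forebrain (log2 -3.05 ± 0.41). Genes of oligodendrocyte precursors were higher in forebrain for 6 of 11 members and in cerebellum for none, with a median of 1.25. Pdgfra, the growth factor receptor of these precursors, had 50.4, 68.3 and 89.6 CPM against 17.6, 22.6 and 30.1 CPM (log2 1.64 ± 0.08), and Cspg4, which codes for NG2, differed by 1.25 ± 0.06.

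Choroid plexus genes were higher in cerebellum for 8 of 11 members and in forebrain for none, with a median of -2.64, but the libraries of the regions overlapped for 10 of the 11. Ttr differed by -5.50 ± 1.25 (adjusted p = 4.3e-04), with 0.324, 2.02 and 94.1 CPM in forebrain and 0.238, 4.38 and 1703 CPM in cerebellum. Without the 5 cerebellum libraries above 100 CPM of Ttr, a fit that keeps no cerebellum library at CT8 or CT20, its difference was 0.06 (adjusted p = 0.95), and Kl, Sostdc1, Aqp1 and Prlr turned to 1.46, 3.64, 0.78 and 1.49. Of these 4, Aqp1 did not pass in that fit (adjusted p = 0.11). Otx2, a homeobox gene that cerebellar cells also express, was the member without overlap, with 4.99, 12.3 and 20.1 CPM in cerebellum and at most 0.510 CPM in forebrain (log2 -6.33 ± 0.34).

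Genes of neurogenesis were higher in forebrain for 10 of 12 members and in cerebellum for 1 (Eomes), with a median of 2.33. Dcx, of migrating young neurons, had 61.2, 74.5 and 89.3 CPM in forebrain and 7.17, 9.76 and 12.9 CPM in cerebellum (log2 2.99 ± 0.10), and Sox11 had 33.2, 54.3 and 85.7 CPM against 6.01, 8.55 and 13.6 CPM (log2 2.64 ± 0.15). The proliferation marker Mki67 was not called (log2 0.46 ± 0.10), whereas Top2a, another listed gene, was called higher in forebrain (log2 1.31).

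Immediate early genes, which neurons switch on within minutes of activity, were higher in forebrain for 11 of 17 members and in cerebellum for none, with a median of 1.64. Egr1 had 99.6, 214 and 306 CPM in forebrain and 22.1, 26.7 and 32.0 CPM in cerebellum (log2 2.94 ± 0.18), and Arc, of dendritic plasticity, had 45.3, 129 and 405 CPM against 10.9, 14.1 and 18.8 CPM (log2 3.35 ± 0.31). The libraries of CT24 held the highest Arc levels in forebrain (343 and 405 CPM). Fos itself was not called, with 6.52, 20.5 and 44.9 CPM in forebrain and 3.06, 16.2 and 40.5 CPM in cerebellum (log2 0.35 ± 0.31, adjusted p = 0.29).

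Of 19 core clock genes, 3 were higher in forebrain and 4 in cerebellum when averaged over time (median -0.22), shares near the 17.2% and 15.9% called over all features. Npas2, a partner of Arntl that can stand in for Clock, had 40.2, 45.1 and 54.4 CPM in forebrain and 3.04, 3.70 and 6.31 CPM in cerebellum (log2 3.54 ± 0.09, adjusted p = 3.2e-18), whereas Clock was not called (log2 -0.22 ± 0.04). The nuclear receptor genes of the ROR family divided, with Rorb higher in forebrain (log2 2.34 ± 0.14) and Rora higher in cerebellum (log2 -2.12 ± 0.09). The repressor gene Cry1 was higher in cerebellum, with 43.7, 56.8 and 75.1 CPM against 17, 21.7 and 27.4 CPM in forebrain (log2 -1.43 ± 0.07), and Cry2 was not called (log2 0.44 ± 0.04). Hlf was the third called higher in forebrain (log2 1.23 ± 0.11) and Nr1d2 was also called higher in cerebellum (log2 -1.03 ± 0.05). Nr1d2 lay at the threshold. It lost the call with the first CT8 cerebellum library added (-0.9987) and, for example, without the second forebrain library of CT4 (-0.9968). Arntl, Per1, Per2, Per3 and Nr1d1 were not called, with averages between -0.56 and 0.44. In the quasi-likelihood test for a change with time, 8 of the 19 had an unadjusted p under 0.05, against 13.3% of all features. None of the 19 passed that test after adjustment. Per2 differed by -0.707 at CT4, 0.645 at CT8 (1 cerebellum library) and -0.795 at CT24, so its average joins opposite signs.

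Of 473 symbols over all lists, 411 were tested and 62 were below the filter on low counts, 33 of them under 0.1 CPM in both regions. Several genes that these cells are known to use, among them Neurod1, Cbln3, Sox2, Sox10, Dbp, Ctss and Egr3, had a median of 0 CPM in both regions in the deposited table, and no statement is made about them.

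The share of features called differed by class. Of 14227 protein-coding genes tested, 16.1% were called higher in forebrain and 11.8% in cerebellum, and of 3818 long noncoding genes 19.7% and 24.9%. Among 659 other small or structured RNAs the shares were 14.4% and 31.1%, and among 638 loci without a name in the annotation 34.3% and 35.1%. The long noncoding genes with the largest differences were Dlx6os1 (chr6:6820189-6871592, log2 10.53 ± 0.27), which is antisense to Dlx6, Gm28928 and Gm38073 in forebrain, and Gm42912, Gm39465 and Lhx1os in cerebellum. Gm28928 (chr1:124505757-124846039) had 470, 1136 and 2184 CPM in forebrain and 0.272, 1.01 and 21.4 CPM in cerebellum (log2 8.82 ± 0.76, and 9.45 ± 0.66 without the second cerebellum library of CT16, the highest). Lhx1os, beside the Purkinje cell gene Lhx1, had 39.6, 47.5 and 52.3 CPM in cerebellum and at most 0.276 CPM in forebrain (log2 -8.79 ± 0.20).

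Ranked by level per kb of exon, the called features in front were mostly short transcripts or pseudogenes. In forebrain they were Gm27332, Gm23935, Mir3083, Gm28928 and Gm26937, and in cerebellum Gm12413, Gm24510, Gm22542, Gm42584 and Kcnip4. Gm27332 is a microRNA gene of 112 bases with overlapping libraries of 148 to 457 and 104 to 178 CPM, and its log2 difference of 1.01 ± 0.12 lay at the threshold. Kcnip4, a potassium channel interacting protein, was the protein-coding gene among them, at 5555, 7514 and 8068 CPM in cerebellum and 932, 1669 and 2704 CPM in forebrain (log2 -1.94 ± 0.15).

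The called protein-coding genes were also set beside their levels in other organs of the series. Of genes called higher in forebrain 29.5% (676) and of those called higher in cerebellum 26.8% (451) had under 1 CPM on average in both liver and kidney, against 13.4% (1900) of all protein-coding genes tested. Median gene lengths were 32.4 kb for forebrain calls, 29.2 kb for cerebellar calls and 25.6 kb for genes not called, and of 945 genes of 200 kb or more 30.9% were higher in forebrain and 15.3% in cerebellum. These are descriptions across genes, which are not independent.

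The composition of the libraries was compared between the regions in 5 measures by a two-sided exact permutation test over 23328 exchanges of libraries within times, with p-values adjusted over the 5. The 100 most abundant features took 16.4% ± 0.32 of the counts in forebrain (SD, n = 12) and 18% ± 0.37 in cerebellum (SD, n = 11; exact permutation adjusted p = 7.1e-05). Long noncoding genes took 6.90% ± 0.53 and 8.27% ± 0.25 (exact permutation adjusted p = 7.1e-05). Mitochondrially encoded genes took 0.231% ± 0.031 and 0.151% ± 0.012 (exact permutation adjusted p = 7.1e-05). The unadjusted p of these 3 measures, 4.3e-05, was the smallest that the exchanges can give. The number of features at 1 CPM or more, 17014 ± 273 and 16910 ± 166, did not pass the test (exact permutation adjusted p = 0.34). Antisense genes took 1.0% ± 0.065 and 0.912% ± 0.055. Their p is not given because the first CT8 cerebellum library, which was left out, stood far above the others in antisense share. Antisense genes are counted among the long noncoding ones. The library left out also lay above the other cerebellum libraries in long noncoding share (11.4% against 7.92 to 8.74%) and mitochondrial share (0.510% against 0.129 to 0.165%). Its addition left the long noncoding difference at -1.62 percentage points (exact permutation adjusted p = 1.1e-04). With that library added, the antisense difference was -0.13 percentage points (exact permutation adjusted p = 1.0) and the mitochondrial one 0.050 (exact permutation adjusted p = 0.17).

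At single times the number of called features ran from 5437 at CT8, where cerebellum had 1 library, to 7380 at CT16. The spread was estimated over all groups, so the lone CT8 library was assumed to vary like the others, and counts over all times rest on this too. At all 6 times 2271 features were called higher in forebrain and 1679 in cerebellum, and 22 were called in opposite directions at different times. Of the 6787 features called on average, 6673 (98.3%) had the same sign at all 6 times. Whether the regional difference changed with time was tested across the 6 times together, and edgeR's quasi-likelihood test called none of 20540 features (0.0%), with 2722 at an unadjusted p under 0.05 and 806 of 17354 called by DESeq2's likelihood ratio test. The smallest adjusted p was 0.070, for Zic4, a granule neuron factor, and for the small nucleolar RNA gene Gm24219. Zic4 was higher in cerebellum at each time, by 3.84 at CT8 to 5.36 at CT24 on the log2 scale.

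Sleep-deprived libraries gave a separate measurement of the same regional difference. In 24 SD libraries, 12 of each region, 3520 of 20357 features (17.3%) were called higher in forebrain and 2859 (14.0%) in cerebellum. Of the 3401 control calls for forebrain that were tested in SD, 3233 were called there too, 95.1% of these control calls and 93.1% of the 3473 SD calls for forebrain that were tested in control. Of 3198 control calls for cerebellum 2684 were, 83.9% of these control calls and 95.4% of the 2814 SD calls for cerebellum that were tested in control. None was called in the opposite direction, and all 6599 control calls tested had the same sign. The median gap between the log2 differences was 0.09 over 20195 features. Gabra6 differed by -13.25 in SD and -12.43 in control, Fezf2 by 9.55 and 8.81, and Cx3cr1 by 2.05 and 2.01. The Ttr difference in SD was -5.48, where 9 of 12 cerebellum and 2 of 12 forebrain libraries stood above 100 CPM of Ttr and the cerebellum libraries ran from 0.224 to 2770 CPM.

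**Figure D5:**
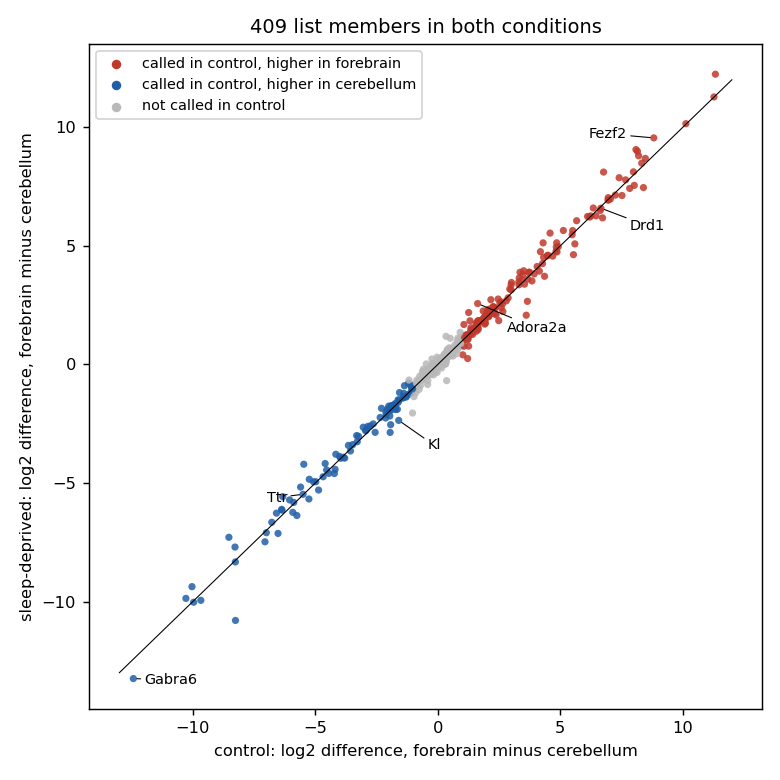
Each of the 409 points is a member of a gene list tested in both conditions, with its log2 difference, forebrain minus cerebellum, in control libraries on the horizontal axis and in sleep-deprived libraries on the vertical axis. The line marks equal values and colours mark the control call. Points lie along the line, with Gabra6 at -12.43 and -13.25 and Fezf2 at 8.81 and 9.55.

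The change of the regional difference with sleep deprivation was tested directly. edgeR's quasi-likelihood test called none of 21910 features (0.0%), with 988 at an unadjusted p under 0.05 and a smallest adjusted p of 0.99, and DESeq2 called none, with 1011 at an unadjusted p under 0.05. Gm44874, C130046K22Rik and 1700025N21Rik, all long noncoding, had the smallest p-values, with changes (SD minus CON) of 1.58, 0.31 and 0.36. Adora2a differed by 2.57 in SD and 1.62 in control, and this gap was not called.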

How the data were processed

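The deposited values were raw counts of paired-end reads from strand-specific total RNA libraries, summed by the authors for each gene. Per the labels and the study's methods, reads were trimmed with Trim Galore, aligned to GRCm38 with HISAT2, filtered with SAMtools and counted with featureCounts, by default without reads shared by 2 genes on the same strand. Genes that overlap on one strand can therefore be undercounted. Ensembl identifiers made up 49585 of the 54833 features in the table, and 49326 of them had a symbol in GENCODE M21, on the same build. The remaining 5248 were numbered loci of unstated origin.

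Control forebrain (12 libraries) and control cerebellum (11) were fitted with edgeR 4.0.16 in R 4.3.3, with region and circadian time as factors, TMM factors, features kept by filterByExpr per region and the quasi-likelihood F-test. p-values were adjusted by Benjamini-Hochberg over all features tested, and a call needed an adjusted p below 0.05 and an absolute log2 difference above 1. The same fit was made for sleep-deprived libraries. The changes with time and with condition were tested as interactions at an adjusted p below 0.05. The SE is the log2 difference over the square root of F. Levels (CPM) are counts scaled to a library total of 1000000. At the depths given, 1 CPM rested on at least 26.0 counts. The composition of libraries was compared by exact permutation in Python 3.11.15 with scipy 1.17.1. The fits were also run on counts simulated from cerebellum levels and spread, with far fewer changed genes than here. Those runs therefore do not measure how well the fits perform on these data.

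Named genes were the 10 protein-coding genes per direction with the largest differences among calls without overlap and with a mean of 10 CPM or more in the higher region, the 3 such long noncoding genes, the 5 called features with the highest level per kb, and the 3 features with the smallest p in the time and the condition test. Some genes that met this rule are not reported here. List members were named from each list to show its direction and its exceptions. The members and lists were chosen with earlier results of these data known. Libraries count as separate samples, and p-values measure the spread between them. Alternatives were DESeq2 1.42.0, other scaling, filters, thresholds and time terms, a block for the replicate number, and leaving out each library. The fits without the 2 forebrain libraries highest in striatal transcripts or the 5 cerebellum libraries high in Ttr were chosen after seeing the data. Liver and kidney served only as levels.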

Additional observations from a re-analysis of the deposited data

Results flagged for a closer look

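The first cerebellum library of CT8, which entered no comparison, had 3.596% of its counts on genes annotated as antisense, while the control libraries used had 0.831 to 1.12%. It was flagged as a signal in data that the comparisons do not use, and its part in any result was not tested beyond the fits that include it. No outlier test among replicates was run, since groups at one time held 2 libraries.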

How the results depend on the processing

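Of 301 alternative values for the main results, 273 kept their direction and their side of the threshold or stayed within 1.5 times. Without the filter on low counts the control comparison called 10726 features, 6017 of them higher in forebrain, and the sleep-deprived one 10538 (6167 and 4371). Above a log2 of 2 the counts were 2617 (1674 and 943) in control and 2526 (1663 and 863) in SD. Leaving out each library in turn gave 6499 to 7026 calls in control (forebrain 3380 to 3616, cerebellum 3013 to 3411), 6380 to 6610 in SD (3470 to 3633 and 2822 to 3057), 0 to 40 for the change with time, most without the second forebrain library of CT8, and 0 for the change with condition. The change with time was called for 806 features by DESeq2, 1248 without the filter, 17 with a 24 h cosine in place of the 6 times, 6 with library sizes and 4 with the replicate block. By the adjusted p alone, 4020 features were higher in forebrain and 4044 in cerebellum at all 6 times. With the first CT8 cerebellum library the difference in mitochondrial counts was 0.0502 percentage points, no longer past the threshold, and that in antisense counts was -0.134. The causes were not tested.

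The labels do not say whether same-numbered libraries share a mouse, and the data did not meet the condition set for treating the numbers as pairs, a correlation over 0.1 for every pair: the correlation of same-numbered libraries between regions was -0.01 to 0.20 in control and -0.08 to 0.15 in SD. With the replicate number as a block the control comparison called 3534 features in forebrain and 3313 in cerebellum, and 6 list members (Foxp2, Nr2f2, Adora2a, Penk, Kl and Sostdc1) lost the call. Of 256 called list members, 22 lost the call or changed sign under an alternative other than a test against a 2-fold threshold, under which 24 did. The 5 choroid plexus genes that changed sign without Ttr-rich libraries are given in the report. Of these, Ttr and Aqp1 did not pass the adjusted p in the other direction. Of 574 values for 41 named genes 569 kept their call. Gm27332 fell to 0.95 with library sizes. Depth limits mostly genes under 1 CPM.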
